A study of Mus musculus with 8 samples.

Results

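This is an account of Snx5-/- against Snx5+/+ lungs that had breathed air at embryonic day 18.5, on 4 of the 8 arrays of a mouse series. Snx5 encodes sorting nexin 5, a protein of the endosome, and the mutant allele came from a single gene-trap embryonic stem cell line with an insertion of beta-geo in an intron of Snx5. The study asked how loss of Snx5 alters the fetal lung, and total RNA of whole lungs was hybridized to Illumina MouseRef-8 v2 arrays. The mice are labelled C57BL/6. According to the study's methods they were bred from heterozygous parents after the trapped allele had been backcrossed to that strain. The groups were Snx5-/- air lungs and Snx5+/+ air lungs, with 2 arrays each, chosen by the titles air-breathing Mutant lung and air-breathing Wild lung. The methods describe an air-breathing test in which fetuses were delivered by caesarean section, freed of lung fluid, warmed and exposed to room air, but the labels do not give how long the lungs on these arrays had breathed. The other 4 arrays, from Snx5-/- non-air and Snx5+/+ non-air lungs with 2 arrays each, entered the fit and are used only where the 2 air states are compared. Genes on X and Y are left out of all counts and descriptions, other than a pair used to check the samples.

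At birth the lung changes within minutes from a fluid-filled organ to one stretched by air. Thin type I cells carry the gas exchange, type II cells make surfactant, and both lie on a mesh of capillaries. Handling, stretch, oxygen and growth signals switch on immediate-early genes, whose transcripts rise without new protein synthesis and are lost again quickly. Interferons act through receptors on most cells and switch on genes for guanylate-binding proteins, immunity-related GTPases and the presentation of peptides on MHC class I.

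All values are log2 intensities as the authors deposited them, so that a difference of 1 is a doubling. The arrays detected between 12209 and 12685 of the 25697 probes at a detection p of 0.01. The labels do not say whether the 2 arrays of a group come from different animals, while the methods speak of 2 biological replicates, so that p-values measure the spread between these arrays. The non-normalized intensity columns of the series carry exchanged air labels. The probe ranks of every intensity column followed a log2 column with its genotype and number but the opposite air state (Spearman correlation at least 0.99975), and no more than 0.972 with any other log2 column, whereas the detection p-values followed the labels of the log2 columns. Which labels are right cannot be settled from the files. The log2 columns are used under their own labels, and under those of the intensities several of the results below are absent or turned: 0 of 31 tested immediate-early genes were called by limma (5 with an unadjusted p under 0.05), 0 of 41 interferon-induced genes were higher and 3 lower, and 0 of 19 MHC class I genes were called (6 with an unadjusted p under 0.05), while 5 of 18 cardiac muscle genes were higher. The sex-linked genes did not go together with the genotype labels alone. The Y-linked Eif2s3y had 11.81 and 11.73 in Snx5-/- air lungs, against 7.40 and 7.21 in Snx5+/+ air lungs, and the X-inactivation transcript Xist had 7.83 and 7.77 in Snx5-/- air lungs, against 12.32 and 12.38 in Snx5+/+ air lungs. Genotype and this difference cannot be told apart in the air lungs, for autosomal genes as well. All 4 non-air arrays had Xist between 11.82 and 12.58 and Eif2s3y at 7.34 or below.

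In Snx5-/- air lungs, 13 of 35 tested immediate-early genes, led by Fos, Fosb and Egr1, were lower than in Snx5+/+ air lungs. Higher were 12 of 41 interferon-induced genes and 7 of 20 MHC class I genes, Ifit3 and Nlrc5 among them, and also 10 of 18 genes of heart muscle, 5 of 12 of skeletal muscle and 4 of 12 of neutrophils. Of 17 markers of type I cells 3 were lower. The largest change of all, that of Dstn, lay near Snx5 on chromosome 2, as did that of Rrbp1, and both genes were lower. A gene was called when 1 of its probes had a Benjamini-Hochberg adjusted p under 0.05 in limma and a change of more than 1.28-fold in either direction. Of 9184 autosomal genes tested, 110 were called higher in Snx5-/- air lungs (1.20%) and 134 lower (1.46%), together 244 (2.66%). The median log2 fold change over all genes tested was 0.0028, and 50.6% of the values were positive. These shares are the background for the counts of called and of negative or positive members in every list below. With 2 arrays against 2, the groups did not overlap in 48.6% of all genes tested, so that separation alone carries little weight. They did not overlap in any of the 213 genes called at the probe that stands for the gene, so that separation adds nothing to a call. The difference between the genotype effects with and without air, tested as an interaction in the same fit, was called for 46 of 9339 genes (0.493%), 22 of them with a positive and 24 with a negative difference.

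**Figure D1:**
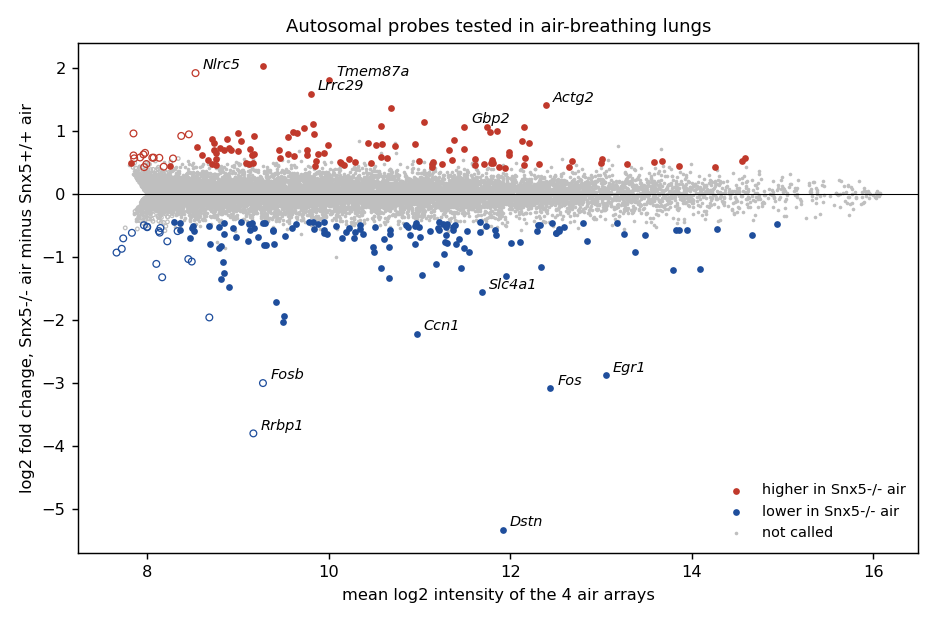
Log2 fold change of Snx5-/- air over Snx5+/+ air lungs for each autosomal probe tested, against its mean log2 intensity in the 4 air arrays, with called probes marked by direction and open symbols for probes at background in 1 of the 2 groups, whose fitted value is no measured size. Dstn lies lowest, at -5.32, and most called probes lie between 0.42 and 2.03 from 0.

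Snx5 itself stood at the edge of detection and has 2 probes. The brighter had 7.29 and 7.10 in Snx5-/- air lungs, against 7.84 and 8.42 in Snx5+/+ air lungs. Both Snx5-/- arrays lay below both Snx5+/+ arrays, but Snx5+/+ air lung 2 was the only 1 of the 8 arrays on which the probe was above background. Snx5 was at least 1.10-fold lower (limma, adjusted p = 0.0103), a call that was lost without Snx5-/- air lung 2 (adjusted p = 0.106) and could not be tested without Snx5+/+ air lung 2. The other probe was at background on all arrays, with 7.36 and 7.53 in Snx5-/- air lungs, against 7.55 and 7.55 in Snx5+/+ air lungs. The position of the probes relative to the trap insertion was not determined, so that these values are a weak check of the labels. Among 33 tested sorting nexin and retromer genes, which sort cargo at the endosome, Snx5 was the only one called, and the median log2 fold change of that list was 0.01. Igf2r, the receptor that carries lysosomal enzymes and is sorted by these proteins, had 12.81 and 12.94 in Snx5-/- air lungs, against 12.90 and 12.86 in Snx5+/+ air lungs. Egfr, the epidermal growth factor receptor, had a log2 fold change of -0.39 (limma, adjusted p = 0.126). Neither of these receptors passed the test.

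The largest difference of the comparison lay within a few genes of Snx5. Dstn, the gene of destrin, which takes actin filaments apart, and which lies 8 places from Snx5 in the RefSeq gene order, had 9.39 and 9.13 in Snx5-/- air lungs, against 14.68 and 14.48 in Snx5+/+ air lungs, a log2 fold change of -5.32 ± 0.13 (SE; limma, adjusted p = 1.34e-09). Rrbp1, which holds ribosomes on the endoplasmic reticulum and lies 6 places from Snx5, had 7.23 and 7.32 in Snx5-/- air lungs, against 11.07 and 11.07 in Snx5+/+ air lungs. It was not above background in either Snx5-/- lung and was at least 8.41-fold lower (limma, adjusted p = 6.88e-09). In both genes the 2 groups stood far apart and the arrays of a group lay close together. Rbbp9, a serine hydrolase 15 places away, had 11.40 and 11.21 in Snx5-/- air lungs, against 12.59 and 12.61 in Snx5+/+ air lungs (log2 fold change -1.29 ± 0.12, limma, adjusted p = 0.000177). Without air these genes were lower as well, Dstn at -5.02 (limma, adjusted p = 2.69e-09) and Rbbp9 at -0.89 (limma, adjusted p = 0.00814). Rrbp1 had 7.39 and 7.43 in Snx5-/- non-air lungs, against 9.91 and 9.59 in Snx5+/+ non-air lungs (limma, adjusted p = 1.58e-06).

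Some other genes of the same stretch depended on the probe. For Mkks, a chaperonin-like protein 59 places from Snx5, the brightest probe had a log2 fold change of -0.01 (limma, adjusted p = 0.985), whereas another probe had 7.75 and 7.67 in Snx5-/- air lungs, against 9.74 and 9.58 in Snx5+/+ air lungs, at least 3.18-fold lower (limma, adjusted p = 1.92e-06). Crls1, the cardiolipin synthase 101 places away, was the only called gene of the stretch that was higher: 1 probe had 10.31 and 10.28 in Snx5-/- air lungs, against 8.39 and 8.13 in Snx5+/+ air lungs (log2 fold change 2.03, limma, adjusted p = 8.67e-06), while its brightest probe had 0.32 (limma, adjusted p = 0.146). Ovol2, an epithelial transcription factor 4 places away, had -0.24 at its brightest probe and was not called there, and 2 other probes, at background in both Snx5-/- air lungs, were called at least 1.58-fold and at least 1.12-fold lower. For these 3 genes not every probe was called, and a change of the whole transcript cannot be read from them. Fermt1, the integrin activator kindlin-1 at 99 places, had 8.45 and 8.34 in Snx5-/- air lungs, against 9.25 and 9.20 in Snx5+/+ air lungs, a log2 fold change of -0.83 (limma, adjusted p = 0.00194). Within 200 places of Snx5, and with Snx5 itself counted, 10 of 85 tested genes were called (11.8%), 9 lower and 1 higher, against 210 of 8426 genes on chromosomes other than 2 (2.49%). Chromosome 2 as a whole had 34 calls among 758 genes, 19 lower and 15 higher. Slc52a3, a riboflavin transporter at 180 places, was among the 9 (-0.58, limma, adjusted p = 0.0138), but was not called without any 1 of the 4 air arrays, with an adjusted p between 0.0792 and 0.138. Zcchc3, at 196 places, was also among the 9 and again depended on the probe. It was called at -0.61 (limma, adjusted p = 0.0067), while its brightest probe had -0.40 and was not called (limma, adjusted p = 0.134).

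**Figure D2:**
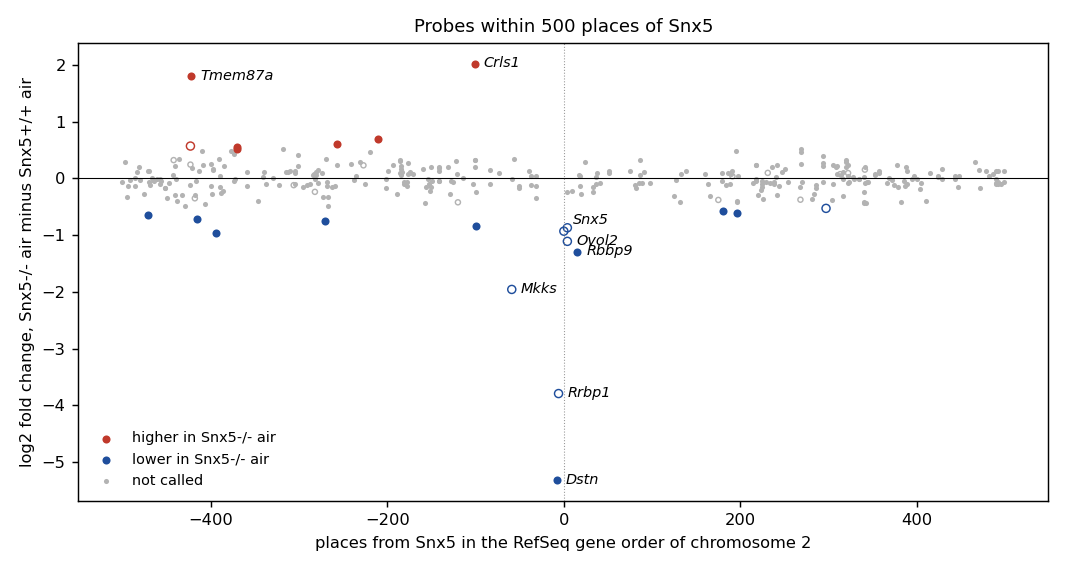
Log2 fold change of Snx5-/- air over Snx5+/+ air lungs for tested probes within 500 places of Snx5 in the RefSeq gene order of chromosome 2, against the number of places from Snx5. Dstn lies lowest, at -5.32, and open symbols, Rrbp1 among them, mark probes at background in 1 of the 2 groups, whose fitted value is no measured size.

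Dstn was 1 of 2 called genes among 27 that turn over actin filaments. The other was Cfl1, the cofilin that shares the severing activity of destrin, with 9.98 and 10.15 in Snx5-/- air lungs, against 10.95 and 10.87 in Snx5+/+ air lungs (log2 fold change -0.85 ± 0.11, limma, adjusted p = 0.0018). The median of the list was -0.08, and the other 25 members did not pass the test.

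Of 35 tested immediate-early genes 13 were lower, the most of any list described here. Fos, which encodes a subunit of the AP-1 transcription factor, had 11.10 and 10.71 in Snx5-/- air lungs, against 13.91 and 14.05 in Snx5+/+ air lungs (log2 fold change -3.08 ± 0.13, limma, adjusted p = 1.04e-07). The 4 non-air arrays had Fos between 10.49 and 10.72, so that both Snx5+/+ air lungs stood alone at the top and the Snx5-/- air lungs were near the non-air level. Fosb, its close relative, had 7.87 and 7.68 in Snx5-/- air lungs, against 10.83 and 10.72 in Snx5+/+ air lungs. It was not above background in the Snx5-/- air lungs, was tested only through the Snx5+/+ air lungs and was at least 6.86-fold lower (limma, adjusted p = 3.87e-08). Egr1, a zinc finger factor induced by growth signals, had 11.61 and 11.62 in Snx5-/- air lungs, against 14.49 and 14.49 in Snx5+/+ air lungs (log2 fold change -2.87 ± 0.10, limma, adjusted p = 1.48e-08). The non-air arrays again lay with the Snx5-/- air lungs, between 11.25 and 11.58.

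Other members of the group act on signalling or on messenger RNA. Ccn1, a secreted matrix protein, had 9.64 and 10.07 in Snx5-/- air lungs, against 12.12 and 12.04 in Snx5+/+ air lungs, and all 3 of its probes were called lower, at -2.22, -1.71 and -1.33. Dusp1, a phosphatase that shuts off MAP kinases, had 13.56 and 13.44 in Snx5-/- air lungs, against 14.68 and 14.70 in Snx5+/+ air lungs (log2 fold change -1.19 ± 0.10, limma, adjusted p = 5.6e-05). In contrast to Fos, the Snx5-/- air lungs were above all 4 non-air arrays, which had between 12.99 and 13.07. Zfp36, which promotes decay of inflammatory messenger RNAs, had 12.85 and 12.97 in Snx5-/- air lungs, against 13.80 and 13.86 in Snx5+/+ air lungs (-0.92 ± 0.10, limma, adjusted p = 0.000419). Klf2, a factor that answers to blood flow in endothelium, had 12.51 and 12.43 in Snx5-/- air lungs, against 13.21 and 13.21 in Snx5+/+ air lungs (-0.74 ± 0.10, limma, adjusted p = 0.00276). In each of these the Snx5+/+ air lungs were highest of all 8 arrays.

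Atf3, a stress-induced repressor, had 8.24 and 8.04 in Snx5-/- air lungs, against 9.51 and 9.45 in Snx5+/+ air lungs (-1.34, limma, adjusted p = 8.26e-05). Ier2, an early-response gene of the nucleus, had 8.36 and 8.08 in Snx5-/- air lungs, against 9.37 and 9.58 in Snx5+/+ air lungs (-1.26, limma, adjusted p = 0.000307). Of 43 listed genes 35 were tested, of which 13 were lower and 0 higher, against a background of 1.46% of genes called lower. The median log2 fold change was -0.40, with 31 of 35 values negative, whereas the median of the same genes between Snx5-/- non-air and Snx5+/+ non-air lungs was -0.04. The naming rule left out Junb (-1.10), Ppp1r15a (-0.77), Jun (-0.76) and Arc (at least 1.32-fold lower), all called, which complete the 13. Klf4, an epithelial relative of Klf2, had -0.42 and was not called (limma, adjusted p = 0.122). Btg2, Egr3, Egr4, Fosl1, Ier5, Klf10, Myc, Nr4a1 and Nr4a3 were at background on all 4 air arrays at the probe that stands for the gene. The number of lower members was between 11 and 14 when any 1 array was left out.

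For 9 of these genes the genotype effect differed between air and non-air lungs. The interaction was -2.89 for Fos (limma, adjusted p = 9.28e-06), -3.12 for Egr1 (adjusted p = 4.08e-07), -1.21 for Dusp1 (adjusted p = 0.00168) and -0.87 for Zfp36 (adjusted p = 0.017), all from limma. For Klf2 it was -0.65 and did not pass (limma, adjusted p = 0.116). The summed intensity of the list was 180741 and 171528 in Snx5-/- air lungs, against 260918 and 262291 in Snx5+/+ air lungs, and between 162549 and 172415 in the 4 non-air lungs. The lengths of exposure to air and the delays before lungs were taken are not among the labels, and their part in these values was not tested.

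**Figure D3:**
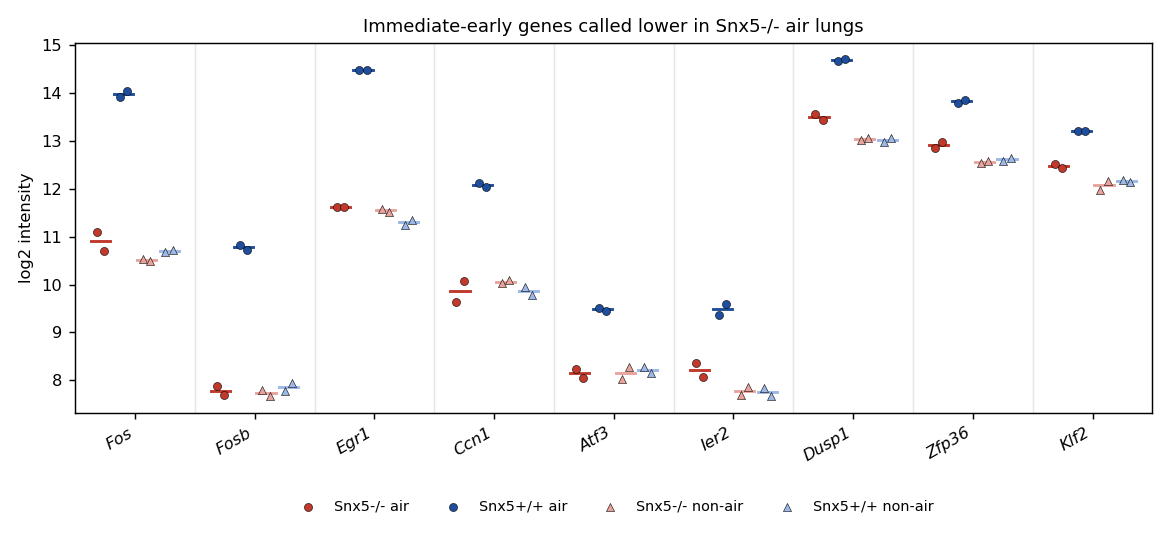
Log2 intensity of 9 immediate-early genes on each of the 8 arrays, with Snx5-/- air, Snx5+/+ air, Snx5-/- non-air and Snx5+/+ non-air lungs as separate symbols, 2 arrays a group and a short line at each group mean. The Snx5+/+ air lungs are highest for every gene shown, at 13.91 and 14.05 for Fos.

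RefSeq promoters of assembly GRCm38.p6, from 250 bases before to 50 after the start, were found for 10 of the 13 lower immediate-early genes. The cAMP response element TGACGTCA was present on either strand in Dusp1 and Ppp1r15a, against 1.79% of all 32851 promoters of that length, and the serum response element, searched by name in its usual consensus, was present in Zfp36, against 1.63%. These stretches of the 2 genes with per-array values above are shown with the motif in capitals, Dusp1 from chr17:26508588-26508635 and Zfp36 from chr7:28379257-28379306, both on the minus strand.
Dusp1: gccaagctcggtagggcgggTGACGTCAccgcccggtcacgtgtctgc
Zfp36: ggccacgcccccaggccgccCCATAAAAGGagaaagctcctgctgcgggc
The motifs start 143 bases before the start of Dusp1 and 58 bases before that of Zfp36. The NF-kB consensus, also searched by name, was present in Fos and Fosb, against 5.8% of all promoters. The hypoxia response element ACGTG was present in 2 of the 10, against 19.6%, and the heat shock element GAANNTTC in 1, Jun, against 7.86%. Members not called lower were not searched, so that these shares cannot be set apart from the choice of the list. A match describes letters and says nothing of what binds there.

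Dusp1, Zfp36, Klf2, Klf4, Inmt and Lgals3bp are genes that the study names in connection with lungs mutant for the corepressor SMRT. In Snx5-/- air lungs 3 of these 6 were lower and 1 was higher. The higher one was Inmt, an amine methyltransferase abundant in lung, with 12.39 and 12.49 in Snx5-/- air lungs, against 11.86 and 11.90 in Snx5+/+ air lungs (log2 fold change 0.56 ± 0.10, limma, adjusted p = 0.011). Inmt lay the other way round without air, with 11.45 and 11.47 in Snx5-/- non-air lungs, against 12.09 and 12.02 in Snx5+/+ non-air lungs (-0.60, limma, adjusted p = 0.0199), and the interaction was 1.16 (limma, adjusted p = 0.0021). The air call of Inmt was lost without Snx5+/+ air lung 1 (adjusted p = 0.124), Snx5+/+ air lung 2 (0.0995) or Snx5-/- air lung 2 (0.0977). Lgals3bp, a secreted glycoprotein, had a log2 fold change of -0.20 in air (limma, adjusted p = 0.385) and was lower without air, at -0.72 (limma, adjusted p = 0.00706), while the difference between these effects did not pass (0.52, limma, adjusted p = 0.199).

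Of 41 tested interferon-induced genes 12 were higher in Snx5-/- air lungs and 1 was lower. Promoter stretches of 4 of them, and of B2m from the MHC class I list, are shown because they hold the interferon-stimulated response element, searched as a pair of GAAA with any 2 bases between them, which is in capitals. In Gbp2 and Ifit3 it lies on the other strand and appears as its reverse complement. The stretches are Gbp2 at chr3:142620584-142620633, Ifit3 at chr19:34583387-34583436, Igtp at chr11:58199502-58199551, Irgm2 at chr11:58214893-58214942 and B2m at chr2:122147528-122147577, all from RefSeq promoters of GRCm38.p6 on the plus strand.
Gbp2: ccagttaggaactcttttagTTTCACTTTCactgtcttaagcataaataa
Ifit3: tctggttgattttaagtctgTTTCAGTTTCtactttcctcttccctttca
Igtp: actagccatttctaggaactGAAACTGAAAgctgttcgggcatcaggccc
Irgm2: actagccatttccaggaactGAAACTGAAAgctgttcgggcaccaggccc
B2m: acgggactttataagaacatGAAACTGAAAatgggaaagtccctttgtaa
The stretches of the neighbouring genes Igtp and Irgm2 differ at 2 of 50 bases. That of Ifit3 precedes a RefSeq start inside the annotated gene, which runs from 34583119 to 34588982 on chromosome 19. A further match in Ifit3, 156 to 147 bases before that start, is not shown. The motif was present on either strand in 6 of the 10 higher interferon-induced genes with a promoter (Gbp2, Gbp3, Ifit3, Igtp, Irgm2 and Trim30a) and in 3 of 6 higher MHC class I genes (B2m, H2-T23 and Psme1), against 3.44% of all promoters. Members not called higher were not searched, so that these shares cannot be set apart from the choice of the lists. A gene counted when any of its promoters held the motif, whereas the share of all is over single promoters.

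Ifit3, an antiviral protein of the IFIT family, had 11.05 and 11.17 in Snx5-/- air lungs, against 9.94 and 10.14 in Snx5+/+ air lungs (log2 fold change 1.07 ± 0.11, limma, adjusted p = 0.000284). Without air it lay in the opposite direction, with 9.97 and 9.86 in Snx5-/- non-air lungs, against 10.62 and 10.58 in Snx5+/+ non-air lungs, and the interaction was 1.75 (limma, adjusted p = 0.00019). Of 2 dimmer probes of Ifit3, both at background in the Snx5+/+ air lungs, 1 was called at least 1.28-fold higher and 1 was not called. Gbp2, a guanylate-binding protein that attacks the membranes around microbes, had 12.11 and 11.93 in Snx5-/- air lungs, against 11.01 and 10.92 in Snx5+/+ air lungs (1.06 ± 0.10, limma, adjusted p = 0.000235). Its relative Gbp3 had 11.76 and 11.58 in Snx5-/- air lungs, against 10.98 and 10.96 in Snx5+/+ air lungs (0.70, limma, adjusted p = 0.00391). For both, the Snx5-/- air lungs were the highest of the 8 arrays.

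The immunity-related GTPases guard against pathogens inside cells. Irgm2 had 11.83 and 11.78 in Snx5-/- air lungs, against 10.98 and 10.91 in Snx5+/+ air lungs (0.86 ± 0.10, limma, adjusted p = 0.000632). Igtp had 10.86 and 10.82 in Snx5-/- air lungs, against 9.90 and 10.17 in Snx5+/+ air lungs (0.80 ± 0.12, limma, adjusted p = 0.00395). Gvin1, a very large GTPase induced by interferon, had 11.51 and 11.23 in Snx5-/- air lungs, against 10.06 and 9.95 in Snx5+/+ air lungs (1.36 ± 0.12, limma, adjusted p = 7.91e-05). In all 3 genes both Snx5-/- lungs were above both Snx5+/+ lungs, as in every gene called higher at its brightest probe. The interaction passed for Gbp2 (1.14, limma, adjusted p = 0.00395), Gbp3 (1.02, adjusted p = 0.00788), Irgm2 (1.11, adjusted p = 0.00293), Igtp (1.09, adjusted p = 0.0116) and Gvin1 (1.15, adjusted p = 0.00833), all from limma.

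The counts of 12 higher and 1 lower among 41 tested of 48 listed genes stand against backgrounds of 1.20% and 1.46%. The lower one was Rsad2, the antiviral protein viperin, which falls outside the naming rule and had 11.10 and 11.10 in Snx5-/- air lungs, against 11.62 and 11.64 in Snx5+/+ air lungs (-0.53, limma, adjusted p = 0.0188). The median log2 fold change was 0.27, with 36 of 41 values positive, and it was -0.16 between Snx5-/- non-air and Snx5+/+ non-air lungs. Ifit1, Mx1, Oas1a, Ifih1, Xaf1, Gbp4 and Iigp1 were at background on all 4 air arrays, as were the interferon-induced chemokines Cxcl9, Cxcl10 and Cxcl11. Leaving out 1 air array gave 5 higher members without either Snx5+/+ air lung and 7 without either Snx5-/- air lung, with a median between 0.29 and 0.33. Among the genes given here, Gbp3 was not called without Snx5+/+ air lung 2 (adjusted p = 0.0578) and Igtp not without Snx5+/+ air lung 1 (adjusted p = 0.0683). The summed intensity of the list was 169247 and 182027 in Snx5-/- air lungs, against 145114 and 150469 in Snx5+/+ air lungs.

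**Figure D4:**
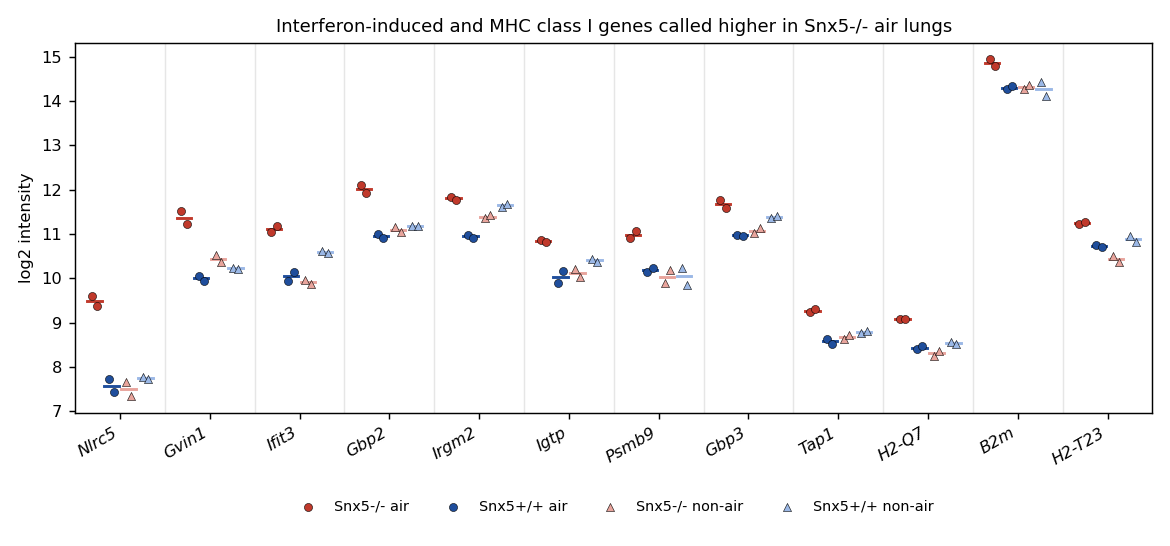
Log2 intensity of 12 interferon-induced and MHC class I genes on each of the 8 arrays, with 2 arrays a group and a short line at each group mean. The Snx5-/- air lungs are above the Snx5+/+ air lungs for every gene shown, at 11.05 and 11.17 against 9.94 and 10.14 for Ifit3.

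Of 20 tested genes of the class I pathway 7 were higher, at several of its steps. Nlrc5, the transactivator of MHC class I genes, had 9.60 and 9.38 in Snx5-/- air lungs, against 7.72 and 7.43 in Snx5+/+ air lungs, where it was not above background. It was at least 2.81-fold higher (limma, adjusted p = 1.45e-05), and since the non-air arrays had between 7.35 and 7.78, the 2 Snx5-/- air lungs stood alone as the only arrays on which Nlrc5 was above background. The gene was tested only through that group, and its interaction (limma, adjusted p = 0.000205) rests on background values and gives no size. Tap1, a subunit of the peptide transporter, had 9.23 and 9.31 in Snx5-/- air lungs, against 8.64 and 8.52 in Snx5+/+ air lungs (0.70, limma, adjusted p = 0.00344). Psmb9, a subunit of the immunoproteasome, had 10.91 and 11.07 in Snx5-/- air lungs, against 10.15 and 10.24 in Snx5+/+ air lungs (0.79, limma, adjusted p = 0.0151). Peptides moved by the transporter are bound by chains of the H2 family, which pair with B2m and show them at the cell surface. H2-Q7, one of the H2 chains, had 9.07 and 9.09 in Snx5-/- air lungs, against 8.41 and 8.46 in Snx5+/+ air lungs (0.65, limma, adjusted p = 0.00461). B2m, the invariant chain, had 14.94 and 14.79 in Snx5-/- air lungs, against 14.28 and 14.33 in Snx5+/+ air lungs (0.56, limma, adjusted p = 0.0385), and the nonclassical H2-T23 had 0.52 (limma, adjusted p = 0.0211), with a second probe that was not called at 0.42. In all of these the 2 groups did not overlap, as in every gene called at its brightest probe.

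None of the 20 was lower, and the median was 0.24, against -0.13 without air. Psmb9 and Tap1 are also on the interferon list, and the H2 genes are close to each other in sequence, so that their probes may share signal. Leaving out 1 air array gave 2 higher members without either Snx5+/+ air lung and 3 without either Snx5-/- air lung. Nlrc5 was called in every such fit. Tap1 was lost without Snx5+/+ air lung 2 (adjusted p = 0.0677), H2-Q7 without Snx5+/+ air lung 1 (adjusted p = 0.076), and Psmb9, B2m and H2-T23 without any 1 of the 4 air arrays (highest adjusted p 0.141, 0.234 and 0.213). B2m was lost as well without either Snx5-/- non-air lung (adjusted p = 0.0762).

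Of 18 tested cardiac muscle genes 10 were higher in Snx5-/- air lungs, and of 12 skeletal muscle genes 5, against 1.20% of all genes tested. Among the called genes, Ckm, which is on both lists, and Acta1 of skeletal muscle were tested only through the Snx5-/- air lungs. In whole lungs, more cells of a type and more RNA per cell cannot be told apart. Tnnc1, the troponin C of heart and slow muscle, had 11.53 and 11.70 in Snx5-/- air lungs, against 10.33 and 10.62 in Snx5+/+ air lungs (1.13 ± 0.13, limma, adjusted p = 0.000841). Actc1, the cardiac actin, had 12.24 and 12.31 in Snx5-/- air lungs, against 11.12 and 11.32 in Snx5+/+ air lungs (1.05 ± 0.11, limma, adjusted p = 0.000419). Csrp3, a protein of the sarcomeric Z-disc, had 10.05 and 10.14 in Snx5-/- air lungs, against 9.07 and 9.15 in Snx5+/+ air lungs (0.98 ± 0.13, limma, adjusted p = 0.00193). The groups did not overlap for any of the 3 genes, as in every gene called at its brightest probe. The Snx5-/- lungs were roughly a doubling above the Snx5+/+ lungs.

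None of the cardiac muscle genes was lower. Their median was 0.81, with 17 positive values, and 0.46 without air. Their summed intensity was 23883 and 26391 in Snx5-/- air lungs, against 13588 and 14456 in Snx5+/+ air lungs, and 21144 and 21580 in Snx5-/- non-air lungs, against 15064 and 11295 in Snx5+/+ non-air lungs. The natriuretic peptides Nppa and Nppb, the heavy chain Myh7 and the calcium handling genes Casq2, Pln and Ryr2 were at background on all air arrays. None of the skeletal muscle genes was lower either, and their median was 0.32. Among them Myl1, a light chain of fast fibres, had 9.32 and 9.58 in Snx5-/- air lungs, against 8.61 and 8.62 in Snx5+/+ air lungs (0.83, limma, adjusted p = 0.00276), whereas Myog, Atp2a1, Pvalb and Actn3 were at background. Myh6, the cardiac heavy chain, had 0.95 (limma, adjusted p = 0.00438), and was lost without Snx5+/+ air lung 2 (adjusted p = 0.0646) or Snx5-/- air lung 2 (adjusted p = 0.06). Without Snx5-/- air lung 2, 5 cardiac and 1 skeletal gene were called, without Snx5+/+ air lung 1 they were 6 and 1, and without Snx5+/+ air lung 2 they were 6 and 3. How much heart or body wall was taken with each lung is not given, and its part in the result was not tested.

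Of 11 tested smooth muscle genes 1 was higher. Actg2, the enteric smooth muscle actin, had 13.14 and 13.04 in Snx5-/- air lungs, against 11.63 and 11.74 in Snx5+/+ air lungs (1.40 ± 0.12, limma, adjusted p = 9.28e-05). The median of that list was 0.15. Tpm2, a tropomyosin, had 0.40 and was not called (limma, adjusted p = 0.133).

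Of 12 tested neutrophil markers 4 were higher, against 1.20% of all genes tested. Retnlg, a resistin-like secreted protein, had 10.20 and 10.29 in Snx5-/- air lungs, against 9.25 and 9.16 in Snx5+/+ air lungs (1.04 ± 0.15, limma, adjusted p = 0.00276). S100a9, a subunit of calprotectin, had 12.17 and 12.52 in Snx5-/- air lungs, against 11.24 and 11.48 in Snx5+/+ air lungs (0.99 ± 0.16, limma, adjusted p = 0.00873). Cxcr2, the chemokine receptor that guides neutrophils, was at least 1.10-fold higher (limma, adjusted p = 0.016), and the growth factor receptor Csf3r had 0.46 (limma, adjusted p = 0.044). Cxcr2 was tested only through the Snx5-/- air lungs, with 8.14 and 8.14, against 7.54 and 7.61 in Snx5+/+ air lungs, and was above background on 1 array. None was lower, and the median of the list was 0.37, against 0.34 without air. The granule genes Mpo, Elane, Prtn3, Ctsg and Mmp8 were at background on all air arrays. The summed intensity of the list was 32450 and 36939 in Snx5-/- air lungs, against 24937 and 24792 in Snx5+/+ air lungs. S100a9 was lost without Snx5+/+ air lung 1 (adjusted p = 0.106) or Snx5-/- air lung 2 (adjusted p = 0.0996), which left 1 called marker, Cxcr2 without any 1 of the air arrays (0.0876 to 0.164), and Csf3r without any 1 of them (0.106 to 0.368) and without either Snx5-/- non-air lung (0.0849).

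Csta3, a cystatin of the stefin family, had 10.36 and 10.40 in Snx5-/- air lungs, against 9.20 and 9.34 in Snx5+/+ air lungs (1.11 ± 0.16, limma, adjusted p = 0.00292). Plac8, a protein of myeloid and lymphoid cells, had 12.22 and 12.32 in Snx5-/- air lungs, against 11.29 and 11.29 in Snx5+/+ air lungs (0.98 ± 0.12, limma, adjusted p = 0.00094). Macrophage markers had a median of -0.14 over 17 genes, with summed intensities of 102959 and 103462 in Snx5-/- air lungs, against 105625 and 105849 in Snx5+/+ air lungs. The 1 called marker was Aif1, an actin-bundling protein of macrophages (0.63, limma, adjusted p = 0.0299), whose second tested probe was not called at 0.46. Aif1 was called in only 2 of 8 fits with 1 array left out, those without a Snx5+/+ non-air lung, and its adjusted p in the others was between 0.067 and 0.245. Marco, a scavenger receptor, was at background in both Snx5-/- air lungs and was not called (limma, adjusted p = 0.24).

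Of 23 tested chemokine genes and receptors 3 were lower and 1, Cxcr2, was higher, against 1.46% and 1.20% of all genes tested. Ccl21a, a chemokine of lymphatic vessels that draws T cells and dendritic cells, had 11.77 and 11.74 in Snx5-/- air lungs, against 12.89 and 12.93 in Snx5+/+ air lungs (-1.15 ± 0.12, limma, adjusted p = 0.000382). Ccl21c had 10.28 and 10.49 in Snx5-/- air lungs, against 11.67 and 11.67 in Snx5+/+ air lungs (-1.28 ± 0.14, limma, adjusted p = 0.000424). The Ccl21 genes are near-identical copies, so that these probes cannot be assigned to 1 copy. Ackr3, a scavenging chemokine receptor, had -0.80 (limma, adjusted p = 0.00574), and was lost without Snx5+/+ air lung 1 (adjusted p = 0.0907) or Snx5-/- air lung 2 (adjusted p = 0.0632). The third lower one, the epithelial chemokine Cxcl14 (-0.47, limma, adjusted p = 0.0395), was lost without any 1 of the 4 air arrays or either Snx5-/- non-air lung (0.063 to 0.26).

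Rgs1, which damps chemokine receptor signalling in lymphocytes, had 7.70 and 7.31 in Snx5-/- air lungs, against 8.80 and 8.85 in Snx5+/+ air lungs. It was not above background in the Snx5-/- lungs and was at least 1.78-fold lower (limma, adjusted p = 0.000217). Of 22 acute-phase and inflammatory genes 3 were lower and 0 higher, with a median of 0.01. Mt1, the metal-binding metallothionein, had 12.90 and 13.47 in Snx5-/- air lungs, against 14.34 and 14.46 in Snx5+/+ air lungs (-1.21 ± 0.23, limma, adjusted p = 0.0168), and was lost without Snx5+/+ air lung 1 (adjusted p = 0.0962), Snx5+/+ air lung 2 (0.146) or Snx5-/- air lung 1 (0.139). The 2 Snx5-/- arrays of Mt1 stood further apart than those of most genes named here. Ptx3, a soluble pattern receptor, had -0.53 at its brightest probe (limma, adjusted p = 0.0704) and -0.58 at another (limma, adjusted p = 0.0117). Il6, Il1a, Tnf, Ptgs2, Saa1 and Saa2 were at background on all air arrays.

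Of 10 tested erythroid markers 1 was lower, and 8 had a negative log2 fold change. Over all genes tested 1.46% were lower, and 50.6% of the values were positive. Slc4a1, the band 3 anion exchanger of red cells, had 10.81 and 11.01 in Snx5-/- air lungs, against 12.52 and 12.42 in Snx5+/+ air lungs (-1.56 ± 0.12, limma, adjusted p = 1.85e-05). It was lower without air too, at -0.84 (limma, adjusted p = 0.00814). Trim10, a ring finger protein of maturing red cells, had 8.30 and 8.03 in Snx5-/- air lungs, against 9.65 and 9.63 in Snx5+/+ air lungs (-1.48 ± 0.12, limma, adjusted p = 6.05e-05), and another tested probe of it, at background in the Snx5-/- air lungs, was not called. The median of the list was -0.22. The beta globin Hbb-b2 had -0.86 and was not called (limma, adjusted p = 0.064), and its copies are close in sequence.

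Of 17 tested markers of type I cells 3 were lower in Snx5-/- air lungs. Pdpn, the membrane glycoprotein also called T1alpha, had 13.61 and 13.53 in Snx5-/- air lungs, against 14.09 and 14.19 in Snx5+/+ air lungs (-0.57 ± 0.10, limma, adjusted p = 0.0148). Ager, the receptor for advanced glycation end products, had 14.73 and 14.68 in Snx5-/- air lungs, against 15.20 and 15.16 in Snx5+/+ air lungs (-0.47 ± 0.10, limma, adjusted p = 0.0334), and a second probe had -0.56 (limma, adjusted p = 0.0142). Aqp5, a water channel of the gas-exchange surface, had 13.13 and 12.92 in Snx5-/- air lungs, against 13.37 and 13.38 in Snx5+/+ air lungs. Its arrays did not overlap by group, but it was not called at either of 2 probes (-0.35 and -0.30, limma, adjusted p = 0.126 and 0.207). Without air it was lower at both probes (-0.69 and -0.78, limma, adjusted p = 0.0141 and 0.00706), and the difference between the effects did not pass at either (0.34 and 0.48, limma, adjusted p = 0.394 and 0.258).

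The third called marker was Col4a4, a chain of the alveolar basement membrane (-0.54, limma, adjusted p = 0.0197). None of the 17 was higher, and the background of genes called lower was 1.46%. The median was -0.24, with 14 of 17 values negative, and -0.22 without air. Pdpn and Col4a4 were lost without any 1 of the 4 air arrays (0.0668 to 0.179 and 0.0871 to 0.177), and the brightest probe of Ager also without either Snx5-/- non-air lung (0.0724 to 0.228). Counting all probes, 1 marker was called without Snx5-/- air lung 1 and 0 without any other single air array. The summed intensity of the list was 213623 and 208521 in Snx5-/- air lungs, against 233711 and 236969 in Snx5+/+ air lungs.

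None of 22 tested type II markers was called by limma after adjustment, against 5 with an unadjusted p under 0.05 and 0 by the study's combined test. The median was 0.04, against -0.29 without air. Under the labels of the intensities 1 of the 22 was lower, 13 had an unadjusted p under 0.05 in limma, and the median was -0.29. The surfactant protein genes had log2 fold changes of 0.10 for Sftpa1, -0.08 for Sftpb, 0.11 for Sftpc and -0.16 for Sftpd. Sftpc, the surfactant protein made only by type II cells, had 15.76 and 15.86 in Snx5-/- air lungs, against 15.63 and 15.78 in Snx5+/+ air lungs, and the groups overlapped. Its signal was near the top of the scale on all arrays, where an array responds less to differences. Scd1, the fatty acid desaturase, had -0.30 (limma, adjusted p = 0.182) and Cebpa, a factor of type II maturation, 0.34 (limma, adjusted p = 0.315).

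Of 9 Clara cell markers 1 was lower, Hp, the haemoglobin-binding haptoglobin, with 13.66 and 13.67 in Snx5-/- air lungs, against 14.29 and 14.18 in Snx5+/+ air lungs (-0.57 ± 0.10, limma, adjusted p = 0.0137). Its 2 other probes were not called, and the call was lost without any 1 of the 4 air arrays (0.0812 to 0.159). Of 20 endothelial markers 2 were lower, Klf2 and Plvap, the protein that spans the openings of fenestrated capillaries. Plvap had 11.57 and 11.65 in Snx5-/- air lungs, against 12.37 and 12.42 in Snx5+/+ air lungs (-0.79 ± 0.10, limma, adjusted p = 0.00152). It was called in every fit with 1 array left out. The median of the endothelial list was -0.13.

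Of 22 collagen and laminin genes 2 were called lower, against 1.46% of all genes tested. The log2 fold change was negative for 21 of the 22, whereas 50.6% of the values of all genes were positive. The median of the list was -0.26 in air and -0.26 without. Col1a2, a chain of fibrillar collagen, had 10.18 and 10.53 in Snx5-/- air lungs, against 10.91 and 11.09 in Snx5+/+ air lungs (-0.64 ± 0.14, limma, adjusted p = 0.0347), and Lamb3, a laminin chain of epithelial basement membranes, had -0.45 (limma, adjusted p = 0.0457). Without either Snx5-/- non-air lung 0 of the list were called, and likewise without 3 of the 4 air arrays. Of 22 fibroblast and elastic fibre genes 2 were lower, the fibulins Fbln2 (-0.63, limma, adjusted p = 0.0154) and Fbln1 (-0.61, limma, adjusted p = 0.00669), and 1, Inmt, was higher, with a median of -0.04 and 12 negative values. Fbln1 was lost without 3 of the 4 air arrays (0.0509 to 0.11), as was Fbln2 (0.0976 to 0.162).

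A further list held markers of tissue around the lung other than the muscle genes above, and where their signal came from was not tested. Of 17 genes of thyroid, thymus, oesophagus and mesothelium, 5 were tested and 3 were lower, Krt14 (at least 1.07-fold, limma, adjusted p = 0.00368), the mesothelial Msln (-0.59, limma, adjusted p = 0.0107) and Krt15 (-0.50, limma, adjusted p = 0.0311). Krt14 was tested only through the Snx5+/+ air lungs, with 8.14 and 8.04, against 7.45 and 7.32 in Snx5-/- air lungs. The defining genes Tg, Pax8, Foxn1, Rag1, Ptcra, Trp63 and Krt5 were at background on all air arrays. Without Snx5+/+ air lung 1 or Snx5-/- air lung 2, 0 of the 3 were called (0.0509 to 0.228), and 1 was called without either of the other air arrays. With members at background in 1 group set to their bound, the median became -0.29 for these markers, 0.27 for skeletal muscle, 0.29 for neutrophils, -0.12 for erythroid cells and 0.22 for the class I pathway, and it moved by less for the other lists described.

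**Figure D5:**
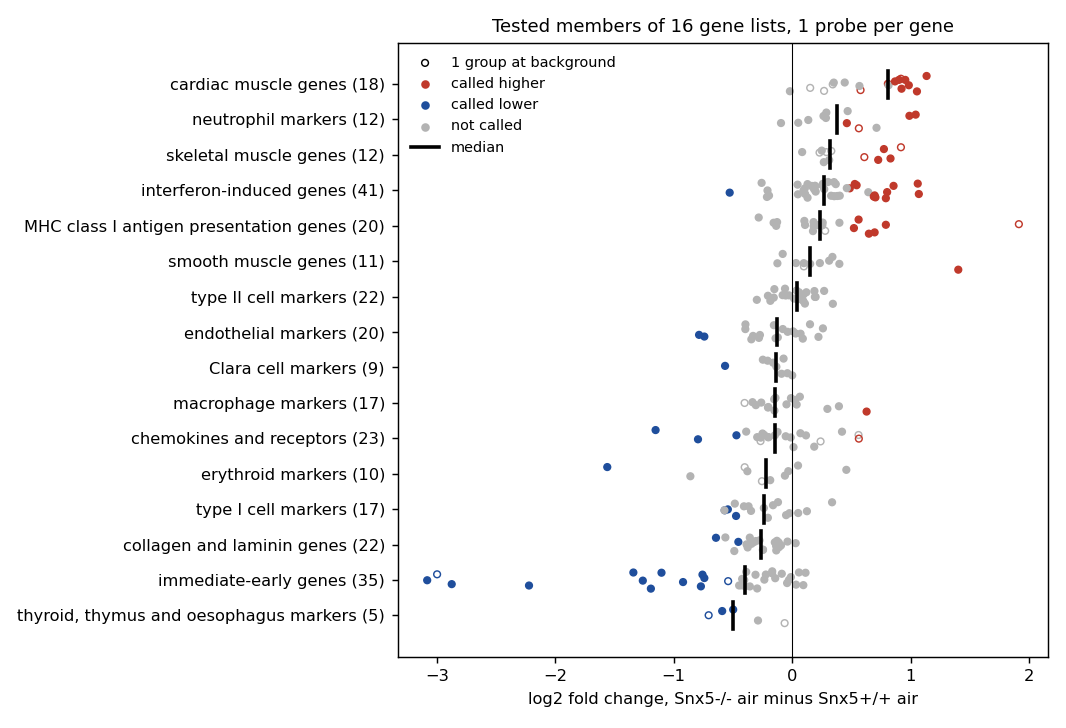
For 16 gene lists, the log2 fold changes of Snx5-/- air over Snx5+/+ air lungs of all tested members, 1 probe per gene, with the median of each list as a bar, called members marked and open symbols for members at background in 1 of the 2 groups. The medians run between -0.50 for the thyroid, thymus and oesophagus markers and 0.81 for cardiac muscle.

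Of the Notch pathway genes that the study names, none of the 5 tested was called by limma after adjustment. At the brightest probes 1, Hey1, had an unadjusted p under 0.05 in limma and passed the study's combined test. A dimmer probe of Hey2, with a log2 fold change of 0.24, was also under that unadjusted level but was not called. Hes1 had 0.22, Hey1 0.40 (limma, adjusted p = 0.0781), Hey2 0.04 and Heyl -0.06, all targets of the pathway, and Mib1, the ubiquitin ligase that activates its ligands, had 0.00. Hes5 did not reach the intensity needed for a test, with 7.68 and 7.67 in Snx5-/- air lungs, against 7.66 and 7.68 in Snx5+/+ air lungs. For Hey1 the arrays did not overlap by group, with 13.59 and 13.54 in Snx5-/- air lungs, against 13.19 and 13.15 in Snx5+/+ air lungs.

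Among the largest changes were 3 more higher genes. Tmem87a, a membrane protein of the Golgi 422 places from Snx5, had 10.998 and 10.82 in Snx5-/- air lungs, against 9.15 and 9.06 in Snx5+/+ air lungs (1.80 ± 0.11, limma, adjusted p = 3.07e-06). Lrrc29, a leucine-rich repeat gene, had 10.54 and 10.64 in Snx5-/- air lungs, against 8.93 and 9.09 in Snx5+/+ air lungs (1.58 ± 0.11, limma, adjusted p = 1.35e-05). For both of these the Snx5+/+ air lungs were the lowest of the 8 arrays, and the non-air lungs of either genotype had between 9.93 and 10.22 for Lrrc29. Psmb1, a subunit of the proteasome core, had 12.81 and 12.55 in Snx5-/- air lungs, against 11.53 and 11.70 in Snx5+/+ air lungs (1.06 ± 0.13, limma, adjusted p = 0.000935).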

How the data were processed

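Whole-lung RNA was measured on 8 Illumina MouseRef-8 v2 arrays, 2 in each of 4 groups by genotype and air state. The authors deposited log2 intensities, which their methods describe as quantile normalized, and these were used under their own column labels. The authors also deposited linear intensity columns (107.59 to 71060) with detection p-values. Their computation is not stated in the sources at hand. The Snx5-/- non-air samples, titled E18.5 Mutant lung, have wild type in their description, and the title decided their group. Dstn had 8.93 and 9.01 on them, against 13.88 and 14.10 in Snx5+/+ non-air lungs. No per-sample column was left out, and the platform annotation names 1 gene for 23978 of 25697 probes, placed through the RefSeq table of GRCm38.p6.

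All 8 arrays were fitted with limma 3.58.1 in R 4.3.3 (lmFit, eBayes, 4 groups, no block). The fit tested 13505 probes whose mean log2 intensity was above 8 in either air group. A probe below that level in 1 air group was thus tested only through the group where it was higher. Calls took an adjusted p (Benjamini-Hochberg) under 0.05 together with a fold change beyond 1.28, the cutoffs of the study's methods, and genes were counted over all their probes. The brightest probe over the 8 arrays stands for a gene. Probes with no gene and genes on X and Y stayed in the fit and out of the counts. Where a probe was not above background (detection p of 0.01) on every array of a group, only a bound on the fold is given, from the higher of its own value and the lowest detected value of each array. The number of arrays limits the precision. In simulated data for the air comparison, over 13443 probes, the fit recovered 52% of genes changed by 0.5, 94% at 0.75 and 100% at 1 on the log2 scale, with 8 false calls among 181. The changed probes all had a mean more than 0.5 above the cutoff of 8, and the noise was independent between arrays. These shares therefore do not cover dimmer probes or arrays that vary together.

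Named are the 15 largest called changes in each direction, genes the study names, up to 6 called members of each list described and called genes within 200 places of Snx5. The gene lists, the naming rule and the comparison were chosen with earlier results of these data known. Alternatives covered the other table and its labels, neqc, median scaling, an added offset, filters, the arrays used, a replicate block, variance settings and the tests of the study's methods, a t-test and a combined test. The combined test joins t and the ratio of medians, each against a permutation null, by Stouffer's method.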

Additional observations from a re-analysis of the deposited data

Results flagged for a closer look

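For 26 of the named genes the genotype effect in air lungs differed from that in non-air lungs by the interaction of the limma fit. Each value is the log2 fold change of Snx5-/- over Snx5+/+ in air lungs minus the same in non-air lungs. For Fosb, Ier2, Rgs1, Nlrc5 and Rrbp1 at least 2 of the 4 groups were at background on both arrays. Their values below are therefore fitted over background and give no size of the difference. Among immediate-early genes the differences were -3.12 for Egr1, -2.89 for Fos, -2.87 for Fosb, -2.42 for Ccn1, -1.28 for Ier2, -1.27 for Atf3, -1.21 for Dusp1 and -0.87 for Zfp36. Other negative differences were those of the gene near Snx5, Rrbp1 (-1.46), of Ccl21c (-1.38) and Ccl21a (-1.24), of Rgs1 (-1.27) and of Trim10 (-1.13). Among interferon and MHC class I genes the differences were 2.16 for Nlrc5, 1.75 for Ifit3, 1.15 for Gvin1, 1.14 for Gbp2, 1.11 for Irgm2, 1.09 for Igtp, 1.02 for Gbp3, 0.96 for H2-T23, 0.88 for H2-Q7 and 0.80 for Tap1. The remaining positive differences were those of Lrrc29 (1.42), Inmt (1.16) and Tmem87a (1.13).

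All 4 non-air lungs and both Snx5+/+ air lungs had high Xist, while both Snx5-/- air lungs had low Xist and high Eif2s3y, so that this interaction cannot be told apart from the sex-linked difference. Groups of 2 arrays allow no test for single outlying samples.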

How the results depend on the processing

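Counts are given as genes higher, genes lower and, where it could be fitted, genes with an interaction, against 110, 134 and 46. The non-normalized intensities under their own labels, which are those of the other air state, gave 26, 38 and 45, and neqc on the matching columns 73, 88 and 29. Median scaling, which moved the median of all probes to -0.04, gave 77, 159 and 43, with 32.6% of calls higher against 45.1%. Array weights gave 173, 190 and 50. The methods' t-test gave 194 and 229 without adjustment and 0 and 1 after Benjamini-Hochberg, and their combined test 306 and 372. Adding 64 before log2, no intensity filter, a detection filter, the air arrays alone, a trend in the prior, X and Y genes left out, 1 probe per gene and no fold cutoff kept both counts within 1.5 times, between 108 and 121 higher and between 133 and 145 lower. So did leaving out the chromosome of Snx5, chosen after seeing the data (91, 112 and 41).

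With 1 array left out there were 32 to 175 higher genes, 47 to 194 lower genes and 24 to 522 interactions. The highest counts came without either Snx5+/+ non-air lung (175 and 194), the 522 interactions without the first of them, and the lowest without Snx5+/+ air lung 1 (32 and 52) or 2 (35 and 47). Of 70 called named genes 37 stayed called in every such fit. The replicate number as a block gave 89, 113 and 43. Deviations of same-numbered arrays correlated between -0.23 and 0.28 over 6 pairs of groups, and at 0.23 between Snx5+/+ air and Snx5-/- air. The labels give these arrays only a common number, and whether they shared a batch or a litter cannot be told from these values.

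Under the intensities' own labels these log2 fold changes changed sign: Ackr3 0.023, Ccl21a 0.083, Ccl21c 0.091, Ccn1 0.20, Cebpa -0.31, Cxcl14 0.15, Dusp1 0.014, Egfr 0.14, Egr1 0.25, Gbp2 -0.075, Gbp3 -0.32, H2-Q7 -0.25, H2-T23 -0.44, Hbb-b2 0.12, Hes1 -0.099, Hey1 -0.16, Heyl 0.16, Ifit3 -0.68, Igtp -0.29, Inmt -0.60, Irgm2 -0.25, Klf4 0.12, Krt15 0.21, Marco 0.045, Mib1 -0.029, Mkks 0.11, Ovol2 0.19, Psmb9 -0.0041, Scgb3a1 1.05, Sftpa1 -0.21, Sftpc -0.038, Tap1 -0.10 and Zcchc3 0.0096. Of 62 called genes that could be fitted there, 12 stayed called, 32 did not and 18 changed sign. Elsewhere the sign changed for Mkks under neqc (0.0039), for Sftpa1 under median scaling (-0.041) and, with 1 array left out, for Igf2r (-0.070 to 0.057), Mib1 (-0.0010 to 0.0076), Hey2 (-0.030 to 0.10), Heyl (-0.24 to 0.12), Mkks (-0.093 to 0.076), Sftpa1 (-0.081 to 0.27) and Sftpb (-0.17 to 0.0089). None of these last genes was called. Outside those labels, the fits with 1 array left out and the methods' t-test after adjustment, 1000 of 1037 values of called genes stayed called, 37 did not and 0 changed sign, and the cause was not tested. Under neqc the calls of Ager, Aif1, B2m, Col1a2, Col4a4, Csta3, Cxcl14, Fbln2, H2-T23, Hp, Krt15, Lamb3, Mt1, Pdpn, Psmb9, S100a9, Slc52a3, Snx5 and Tnni2 were lost, and under median scaling those of B2m, Csf3r and H2-T23. A fit with Xist as a covariate was not run, since Xist hardly varied within a group.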

Other observations

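The called genes given here lie outside the lists and were picked after their values had been seen. How many other genes of the same role were tested was not counted, so that nothing is said of any group of them. Man2b1, a lysosomal alpha-mannosidase, had 12.20 and 12.27 in Snx5-/- air lungs, against 12.86 and 12.80 in Snx5+/+ air lungs (log2 fold change -0.59, limma, adjusted p = 0.0138). Scarb2, which carries glucocerebrosidase to the lysosome, had 9.99 and 9.88 in Snx5-/- air lungs, against 10.57 and 10.69 in Snx5+/+ air lungs (-0.69, limma, adjusted p = 0.00605). The genes of the lysosomal enzymes Glb1 (-0.53) and Hexa (-0.44) and of progranulin, Grn (-0.56), were called lower as well, and Manba and Pld3 at 1 of 2 probes each (-0.57 and -0.62). Itgb6, the beta chain of an epithelial integrin that activates TGF-beta, was lower at all 3 probes, at -0.58, -0.62 and -0.71, Itga3 had -0.50, and Itgb1 had -0.67 at 1 probe and was not called at another (-0.37).

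Vmp1, a membrane protein of autophagy, was lower at 3 probes, at -1.93, at -2.03 and, where it was at background in the Snx5-/- air lungs, at least 1.99-fold, and not called at 2 others, -0.15 at the brightest and 0.30. The first of these had 8.56 and 8.54 in Snx5-/- air lungs, against 10.52 and 10.43 in Snx5+/+ air lungs (limma, adjusted p = 6.39e-07), and its genotype effect differed from that without air by -2.01 (limma, adjusted p = 2.3e-05). Edn1, which encodes the vessel-constricting peptide endothelin 1, was higher with 11.96 and 11.73 in Snx5-/- air lungs, against 11.20 and 11.07 in Snx5+/+ air lungs (0.71, limma, adjusted p = 0.00527). Osm, the cytokine oncostatin M, had 8.22 and 8.37 in Snx5-/- air lungs, against 9.39 and 9.36 in Snx5+/+ air lungs (-1.08, limma, adjusted p = 0.000284). Clec4d (0.81), Fpr2 (0.67), Cstdc4 (0.83) and Stfa2 (0.63) were called higher.

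Of 18 further lists counted, 9 had 0 called genes, 6 had 1 and none had more than 3, with medians between -0.23 and 0.21. Among them, 32 of 35 tested cell cycle and DNA replication genes had a negative log2 fold change, with a median of -0.23 in air and 0.14 without, and 1 was called. None of 75 oxidative phosphorylation subunit genes was called by limma, against 3 with an unadjusted p under 0.05 and 2 by the study's combined test, and their median was -0.08 in air and 0.27 without.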
